A study of Homo sapiens with 2 samples.

Results

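In a library of mock-treated HCT116 cells, 142 of 1783 cells held 3 or more unique molecular identifiers (UMIs, each counting 1 captured RNA molecule) of *IFI6*, an interferon-stimulated gene, although none of them had received a drug. These 142 cells, called *IFI6* cells here, were chosen by their *IFI6* count, and all of them had 10000 or more UMIs in total. They were set against the 708 mock-treated cells that had 10000 or more UMIs and no *IFI6* UMI, called *IFI6*-zero cells. To remove differences in depth from the ratios, every cell was thinned to 10000 UMIs drawn at random without replacement. The *IFI6* count that defined the groups was taken before thinning, so depth still entered the choice of cells. HCT116 is a human colorectal carcinoma cell line, and single-cell RNA sequencing was conducted with the droplet-based 10x Genomics 3' method on 1 library of mock-treated cells and 1 library of cells given 5-aza-2'-deoxycytidine (decitabine, DAC), a DNA demethylating drug. DAC was given at 0.5 μM on days 1 and 3, the medium was changed on day 5, and cells were trypsinized and analyzed on day 7. With 1 library per condition there were no replicates, cells of a library are not replicates of each other, and no test was made. The 95% intervals given here cover counting error only.

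Interferons are secreted signals that cells make when sensors find viral or misplaced nucleic acid. Type I interferon binds its receptor, JAK kinases phosphorylate STAT proteins, and these enter the nucleus with IRF9 to bind a short element, the interferon-stimulated response element (ISRE), in front of interferon-stimulated genes. The products include membrane proteins that hinder viral entry, the ubiquitin-like modifier ISG15, RNA sensors and antigen presentation proteins, and many such genes have a low basal level in unstimulated epithelial cells. *IFI6* encodes a small membrane protein of the IFI27 family.

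The promoters of *IFI6* and of the abundant interferon genes *ISG15* and *IFITM3* are shown because the cells were selected on the first and the other 2 had the most UMIs among the interferon genes whose ratio passed 1.5. Each stretch holds the 160 bases before the RefSeq gene start (GRCh38.p14), 5' to 3' on the gene's strand. Capitals mark matches to the core of the ISRE, GAAANNGAAA, on either strand.
IFI6: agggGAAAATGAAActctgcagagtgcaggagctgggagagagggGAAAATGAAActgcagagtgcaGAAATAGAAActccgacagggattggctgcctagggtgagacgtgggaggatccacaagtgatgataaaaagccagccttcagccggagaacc
ISG15: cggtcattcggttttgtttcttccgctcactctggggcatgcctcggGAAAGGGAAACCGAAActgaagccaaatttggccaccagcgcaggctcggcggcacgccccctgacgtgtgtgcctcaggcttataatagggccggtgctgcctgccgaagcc
IFITM3: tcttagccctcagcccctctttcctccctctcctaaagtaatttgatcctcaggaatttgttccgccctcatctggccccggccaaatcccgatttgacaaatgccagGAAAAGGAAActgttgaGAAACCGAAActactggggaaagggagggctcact

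The *IFI6* stretch lies at chr1:27672193-27672352 on the minus strand and holds 3 matches. The *ISG15* stretch at chr1:1013337-1013496 on the plus strand holds 2 matches that overlap each other. The *IFITM3* stretch at chr11:320861-321020 on the minus strand holds 2 matches, 35 and 52 bases before the start. In the GENCODE annotation of hg38 *IFI6* (ENSG00000126709) spans chr1:27666064-27672212 and overlaps the noncoding gene *LINC02574* on the same strand, and *ISG15* (ENSG00000187608) spans chr1:1001138-1014540 with no such overlap. A match in the 250 bases before the start was found in 1061 of 35116 promoters of the RefSeq table (3.02%), counting both strands and overlapping matches. A match describes the letters and does not show that a factor binds there.

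*IFI6* was unevenly spread over the mock-treated cells. No UMI was found in 1085 of 1783 cells (60.9%, 95% exact binomial interval 58.5 to 63.1%), 1 UMI in 382 cells and 2 UMIs in 174. Had every cell given *IFI6* the same share of its UMIs, 935 cells would have had none and 502 would have had 1. At the threshold used here, 142 cells had 3 or more UMIs where an even share would give 121. The number of *IFI6* cells was thus close to that of an even share. Exactly 3 UMIs were found in 70 cells, fewer than the 82.6 of an even share. At the upper end, 44 cells had 5 or more UMIs where an even share would give 11.5, and 6 cells had 10 or more where it would give 0.0234. The excess was therefore in the cells with 4 or more *IFI6* UMIs and in the cells with none.

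**Figure D1:**
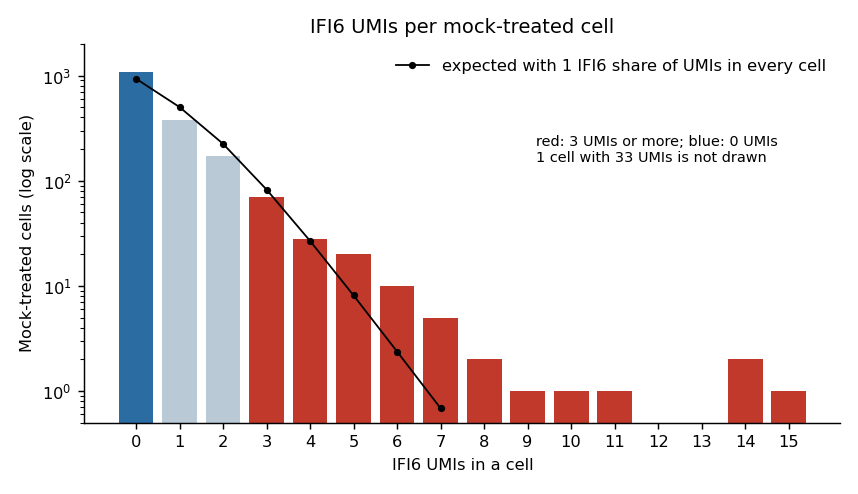
Bars give the number of mock-treated cells (log scale) with each number of *IFI6* UMIs before thinning, and the black line gives the numbers expected if *IFI6* took the same share of UMIs in each cell, drawn where at least 0.5 cell is expected. Observed cells outnumber the line at 0 UMIs, fall below it at 1, 2 and 3 UMIs and outnumber it again from 4 UMIs upward, and 1 cell with 33 UMIs lies beyond the axis.

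The 142 cells made up 7.96% of the mock-treated cells (6.75 to 9.32%) and 10.2% of those with 10000 or more UMIs. They held 639 of the 1369 *IFI6* UMIs of the library, or 46.7%, and 12.4% of all UMIs. The threshold cut through a gradual distribution, since 70 of the cells sat just inside it with 3 *IFI6* UMIs and 174 cells sat just outside with 2. Their median was 4 UMIs, the highest cell had 33 and the next 15. After thinning, 104 of the 142 cells still showed an *IFI6* UMI, and the mean was 1.39 per 10000 UMIs.

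The levels in DAC-treated cells were on another scale. The 2 libraries held 49911689 UMIs (mock) and 59046165 UMIs (DAC), with a range of 500 to 148446 and of 501 to 110116 UMIs per cell. *IFI6* took 27.4 CPM (UMIs per 1000000 UMIs of the library or group) in the mock-treated and 464 CPM in the DAC-treated library, where 963 of 1751 cells (55.0%) had 3 or more and the highest cell had 289. Counts of 10 or more were reached by 618 of the 1751 DAC-treated and 6 of the 1783 mock-treated cells, before any scaling for depth. *ISG15* took 217 and 1280 CPM. The libraries shared 12 cell barcodes, and 3 of these were *IFI6* cells, with 14, 3 and 3 *IFI6* UMIs. In the DAC-treated library the same 3 barcodes had 560, 598 and 546 UMIs in total and no *IFI6* UMI.

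Genes that marked DAC-treated cells were about as scarce in *IFI6* cells as in *IFI6*-zero cells. A list of 10 genes raised in DAC-treated cells took 2.59 CPM in *IFI6* cells, 2.40 in *IFI6*-zero cells and 1196 in DAC-treated cells. The 9 immune cell markers were all at 0 in *IFI6* cells, and 5 of 8 fibroblast and endothelial markers were at 0, the list summing to 12.3 CPM against 10.5 in *IFI6*-zero cells. The epithelial markers of the line were present in both groups, and their ratios lay within the fold. The keratins *KRT8* and *KRT18* had ratios of 1.10 and 1.03 between *IFI6* cells and *IFI6*-zero cells, the tight junction gene *CLDN4* 1.00, the adhesion genes *EPCAM* 0.84 (0.755 to 0.929) and *CDH1* 0.76 (0.478 to 1.16). *EPCAM* was below 1 in 15 of the 16 alternative processings and *CDH1* in all 16, between 0.49 and 0.87.

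*IFI6* cells were deeper before thinning, with a median of 36674 UMIs (14887 to 107399) against 30358 (10014 to 100664) in *IFI6*-zero cells. A rule on *IFI6* counted before thinning favors deeper cells. After thinning *IFI6* cells showed a median of 2790 genes against 2746. A further difference was in the mitochondrial share of UMIs, the part of a cell's UMIs from genes of the mitochondrial genome. Its median was 18.2% in *IFI6* cells and 17.2% in *IFI6*-zero cells, but the highest *IFI6* cell was at 27.0%, whereas 85 of the 708 *IFI6*-zero cells were above 50%. Results are therefore also given without the cells above 50%, and with both groups restricted to cells of 20000 to 60000 UMIs.

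Of the 8551 genes with 100 or more thinned UMIs over all mock-treated cells of 10000 or more UMIs, 597 (6.98%) were higher in *IFI6* cells by a ratio of 1.5 or more, and 328 (3.84%) were lower by the same factor. The ratio is that of UMIs per thinned cell, and *IFI6* itself was not counted. The median log2 ratio over all these genes was 0.10. Without the cells above 50% mitochondrial UMIs the counts were 418 higher and 383 lower and the median was 0.01. When per-cell counts were scaled to 10000 without drawing, they were 265 higher and 40 lower. In a second random draw they were 613 higher and 326 lower. Why the counts were smaller without drawing was not tested.

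Interferon-stimulated genes of several kinds had higher levels in *IFI6* cells. From 5 lists of interferon genes, 53 of 104 listed genes other than *IFI6* were measured, and 17 of these were higher by 1.5 or more (32.1%, beside 6.98% of all genes) and 0 were lower, with a median log2 ratio of 0.35. Of the 53 genes, 42 had a ratio above 1, as did 62.0% of all measured genes. Of the 17 genes, 14 kept their direction and 3 stayed past the fold in each of 16 alternative processings, namely *ISG15*, *SP110* and *IRF7*. Their number past the fold was 12 of 53 without drawing, where the share over all genes was 3.10%, and 10 of 52 without the cells above 50% mitochondrial UMIs, where it was 4.98%. In cells of 20000 to 60000 UMIs it was 15 of 47, beside 5.78% of all genes.

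*ISG15* encodes the ubiquitin-like protein that is attached to other proteins after interferon. It had 3.35 UMIs per thinned cell in *IFI6* cells and 1.91 in *IFI6*-zero cells, a ratio of 1.75 (95% interval 1.57 to 1.94). It was detected in 86.6% of *IFI6* cells and in 73.9% of *IFI6*-zero cells. A detected UMI may also come from free RNA in the droplets, whose share was not tested. Cells with 1 and 2 *IFI6* UMIs had 2.12 and 2.58 *ISG15* UMIs, cells with 3 had 2.36, and cells with 4 and with 5 or more had 4.54 and 4.16. In this draw the mean rose between 3 and 4 *IFI6* UMIs and not between 2 and 3, where the groups were divided. These means rest on 173, 70, 28 and 44 cells with 2, 3, 4 and 5 or more *IFI6* UMIs and have no interval. Whether there is a step was not tested. The ratio was past 1.5 in each of 16 alternative processings, from 1.53 to 2.34. *UBE2L6*, the conjugating enzyme that passes ISG15 on, was 1.73 (1.14 to 2.58), but 0.77 with *IFI6* counted after thinning, and *HERC5*, the main ligase, was 1.30 with an interval of 0.739 to 2.17.

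The interferon-induced transmembrane genes, which block the entry of enveloped viruses at the membrane, had the most UMIs among the effectors past the fold. *IFITM3* had 4.61 UMIs per cell in *IFI6* cells and 2.91 in *IFI6*-zero cells (1.58, 1.45 to 1.73), and it was detected in 95.1% against 79.0% of cells. *IFITM2* had 1.65 against 1.02 UMIs per cell (1.62, 1.39 to 1.88). Both fell just below the fold without the cells above 50% mitochondrial UMIs, to 1.43 and 1.44. The 2 genes are close copies of each other, and how the counting divided their reads was not given in the sources used here. *IFI27L2*, of the same family as *IFI6*, was 1.53 and fell to 1.23 in a second random draw, and *IFI27L1* was 0.95, ranging from 0.71 to 1.41 over the alternatives.

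Other effectors past the fold had far fewer UMIs. *SP110*, a nuclear body protein, was 2.37 (1.47 to 3.75) on 29 UMIs in *IFI6* cells, and it stayed past the fold in each of the 16 alternatives. *BST2*, encoding tetherin, which holds budding virus at the membrane, was 1.79 (0.999 to 3.07) on 19 UMIs and ranged from 1.34 to 2.73 over the alternatives, and *IFI35* was 1.79 (1.19 to 2.65), ranging from 1.11 to 2.27 over the alternatives. *PARP14*, an ADP-ribosyltransferase, was 1.83 (1.26 to 2.60), but it was within the fold in the second draw, and it ranged from 1.10 to 2.12 over the alternatives. The helicase gene *DDX60L* at 1.58, the RNA-binding antiviral gene *IFIT5* at 1.61, the nucleotide phosphodiesterase gene *CNP* at 1.54 and the helicase gene *ZNFX1* at 1.52 completed the list. The intervals of *IFIT5* (0.904 to 2.73) and *CNP* (0.988 to 2.34) held 1. Over the alternatives *DDX60L* ranged from 1.03 to 1.76, *IFIT5* from 0.78 to 1.75 and *CNP* from 0.83 to 1.82. Abundant effectors could lie within the fold, as did *LY6E* at 1.15 (1.02 to 1.29) and the secreted glycoprotein gene *LGALS3BP* at 1.20 (1.05 to 1.37). Without the single *IFI6* cell that held the most UMIs of each gene, *IFI27L2*, *DDX60L*, *IFIT5*, *CNP* and *ZNFX1* lay just under the fold, between 1.45 and 1.49. The effector list therefore did not move as a block, with 10 of 29 measured genes past the fold and a median log2 ratio of 0.27.

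Among signaling genes, 3 of 11 were past the fold. *IRF7*, the transcription factor that amplifies type I interferon production, had 0.155 UMIs per cell against 0.0636 (2.44, 1.39 to 4.14), and it was past the fold in each of the 16 alternatives. *IRF1*, a factor induced by both interferon types, was 2.22 (1.62 to 3.02) and ranged from 1.46 to 2.63 over the alternatives. The constitutive components were closer to 1, with *JAK1* at 1.23, *STAT3* at 1.38 and *IRF3* at 0.88.

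Nucleic acid sensing genes and receptors were mostly within the fold. Of 8 measured sensing genes only *TMEM173*, encoding the DNA sensing adaptor STING, was past the fold (2.27, 1.53 to 3.32), and it had 0.289 against 0.127 UMIs per cell. Its ratio was 1.22 (0.853 to 1.72) with thinning to 20000 UMIs. The RNA editing enzyme *ADAR* at 1.27, the ubiquitin ligase *TRIM56* at 1.15 and the RNA-activated kinase *EIF2AK2* at 1.28 were within it. Of 4 measured genes among ligands and receptors, *IFNAR2* was 1.66 on 17 UMIs and 0.88 in the second draw, and its annotation overlaps a readthrough gene on the same strand. *IFNAR1* at 0.88, *IFNGR1* at 0.94 and *IFNGR2* at 1.22 had ratios within the fold.

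MHC class I antigen presentation genes lay mostly within the fold. Of 15 measured genes, 14 had a ratio above 1, beside 62.0% of all genes, and 1 was past the fold, a share near the 6.98% of all genes. Their median log2 ratio was 0.31, beside 0.10 for all genes. That gene was *PSMB9*, a subunit of the immunoproteasome (1.95), past the fold in each of the 16 alternatives. *B2M*, the light chain of class I molecules, had 6.78 UMIs per cell against 5.05 (1.34), and the chaperone *CALR* was 1.05. Of the 5 measured chemokine and NF-kB response genes, 0 were past the fold.

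**Figure D2:**
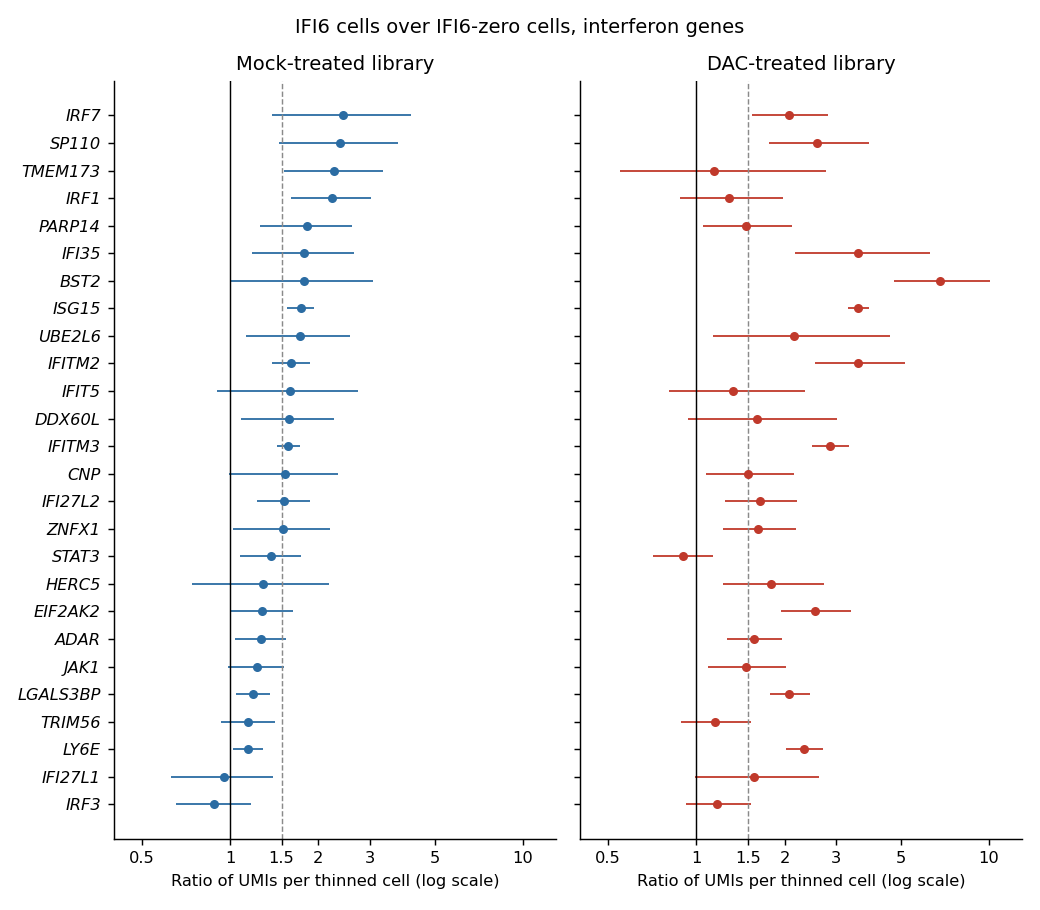
Points give the ratio of UMIs per thinned cell between cells with 3 or more *IFI6* UMIs and cells with none, with 95% counting intervals, for named genes of the 5 interferon lists in the mock-treated (left) and the DAC-treated library (right), on log scales. The dashed line marks 1.5. *ISG15*, *IFITM2* and *IFITM3* have the narrowest intervals among the genes drawn past the line in mock-treated cells, and *BST2* has the highest ratio in DAC-treated cells, 6.78.

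The interferon genes were also summed per cell. The 104 genes other than *IFI6* gave a median of 31 UMIs per thinned *IFI6* cell (14 to 72) and 23 per *IFI6*-zero cell (1 to 71). The 2 ranges overlapped almost wholly, so the sum did not separate single cells. Nevertheless, 76 of 142 *IFI6* cells (53.5%, 45.0 to 61.9%) lay above 29 UMIs, the third quartile of *IFI6*-zero cells, as did 22.0% of *IFI6*-zero cells. Above the 95th percentile of 42 UMIs lay 20 *IFI6* cells (14.1%) and 4.66% of *IFI6*-zero cells. The mean was 24.2 UMIs with no *IFI6* UMI, 27.3 with 1, 28.9 with 2, 29.2 with 3, 35.8 with 4 and 35.1 with 5 or more. It was 25.7 in *IFI6*-zero cells without those above 50% mitochondrial UMIs, and in cells of 20000 to 60000 UMIs it was 32.7 against 25.3. With *ISG15* left out as well, the means were 29.0 in *IFI6* cells and 22.3 in *IFI6*-zero cells.

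Genes outside the interferon lists had ratios as high. Among the 3154 genes with 500 or more thinned UMIs, the 10 highest ratios ran from 1.79 to 2.03. These genes were *PDLIM5*, a cytoskeletal scaffold protein (2.03, 1.67 to 2.46), *FAM89B*, *CLU*, the secreted chaperone clusterin (1.93, 1.57 to 2.37), *MXD4*, a MYC antagonist (1.90), *GALK1*, galactokinase (1.90), *MSX1*, a homeobox factor (1.89), *S100A4*, *CYP24A1*, which degrades vitamin D (1.84), *ATOX1*, a copper chaperone (1.79), and *ID3*. Of the 10 genes, 5 were past the fold in each of the 16 alternatives, namely *PDLIM5*, *CLU*, *MXD4*, *S100A4* and *ID3*, and none changed direction. All 10 were past it without drawing and without the cells above 50% mitochondrial UMIs.

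*S100A4*, a calcium-binding protein linked to cell motility, had the most UMIs of these genes. It had 7.58 UMIs per cell in *IFI6* cells and 4.13 in *IFI6*-zero cells (1.84, 1.71 to 1.97), and it was detected in 90.1% against 72.9% of cells. Over cells with 1, 2, 3, 4 and 5 or more *IFI6* UMIs its mean was 5.28, 7.43, 7.41, 9.11 and 6.89. Cells with 2 *IFI6* UMIs, which lie outside the group, were thus at the level of cells with 3. Its annotation overlaps *S100A3* on the same strand. *ID3*, an inhibitor of DNA-binding factors and a target of BMP signals, had 2.49 against 1.40 UMIs per cell (1.79, 1.58 to 2.02), and *MSX1*, another BMP target, had 2.03 against 1.07 (1.64 to 2.17). *MSX1* was 1.29 and 1.13 in cells with 1 and 2 *IFI6* UMIs and 1.70, 2.29 and 2.39 in cells with 3, 4 and 5 or more.

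**Figure D3:**
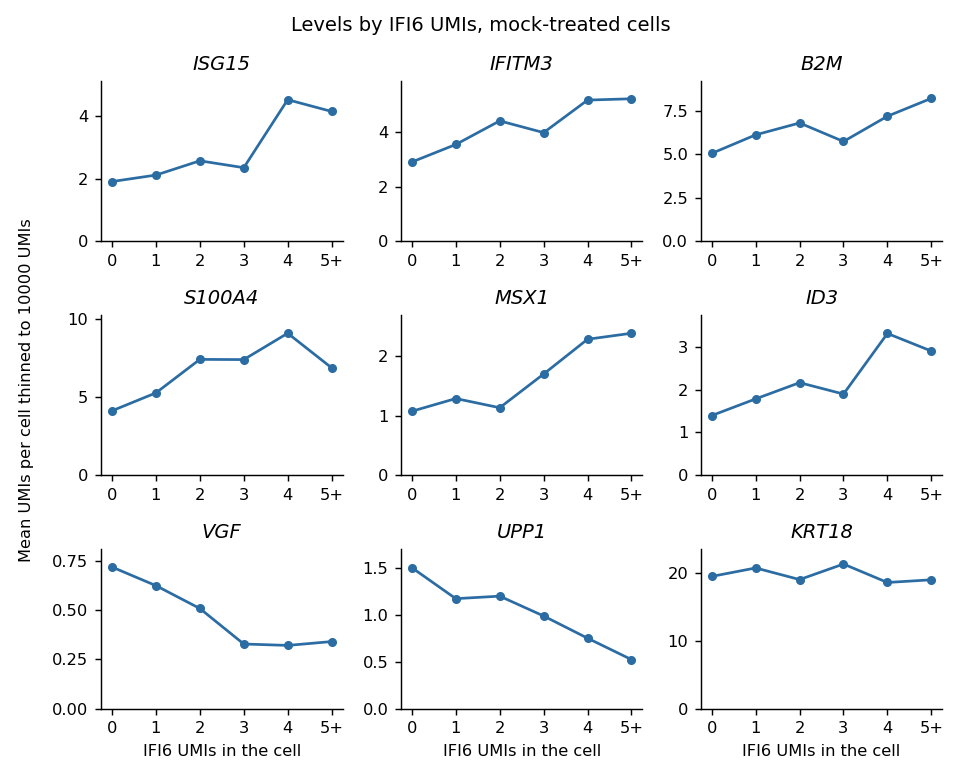
Each panel plots the mean UMIs of a gene per mock-treated cell thinned to 10000 UMIs (vertical axis, from 0) against the *IFI6* UMIs of the cell before thinning, for 708, 365, 173, 70, 28 and 44 cells from left to right. *ISG15* goes from 1.91 to 4.16 and *UPP1* from 1.499 to 0.523 between the outer groups, while *KRT18* stays between 18.5 and 21.2.

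Fewer genes were lower than higher in *IFI6* cells, but not under every processing, with 468 lower and 451 higher in cells of 20000 to 60000 UMIs, 407 and 401 without cells above 20% mitochondrial UMIs, and 851 and 668 with *IFI6* counted after thinning. The lowest reported ratio among genes with 500 or more UMIs was that of *VGF*, a secreted neuropeptide precursor, with 0.331 UMIs per cell against 0.719 (0.46, 0.334 to 0.621). *UPP1*, uridine phosphorylase, had 0.796 against 1.499 (0.53, 0.433 to 0.645), and its mean was 1.17, 1.20, 0.986, 0.750 and 0.523 with 1, 2, 3, 4 and 5 or more *IFI6* UMIs. *VGF* was past the fold in each of the 16 alternatives and *UPP1* in 15. The other genes at this end were *FARSB*, a tRNA synthetase subunit (0.60), *PABPC1L* (0.60), *MTRNR2L12* (0.63), *BRD9*, a bromodomain protein (0.63), *COPS3*, a COP9 signalosome subunit (0.63), the mitotic cyclin *CCNB1* (0.65) and the stress-induced *SESN2* (0.65). Without drawing, 3 of these 9 genes were past the fold, with *BRD9* and *COPS3* at 0.94. *MTRNR2L12*, which resembles the mitochondrial genome in sequence, was 0.91 without the cells above 50% mitochondrial UMIs.

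**Figure D4:**
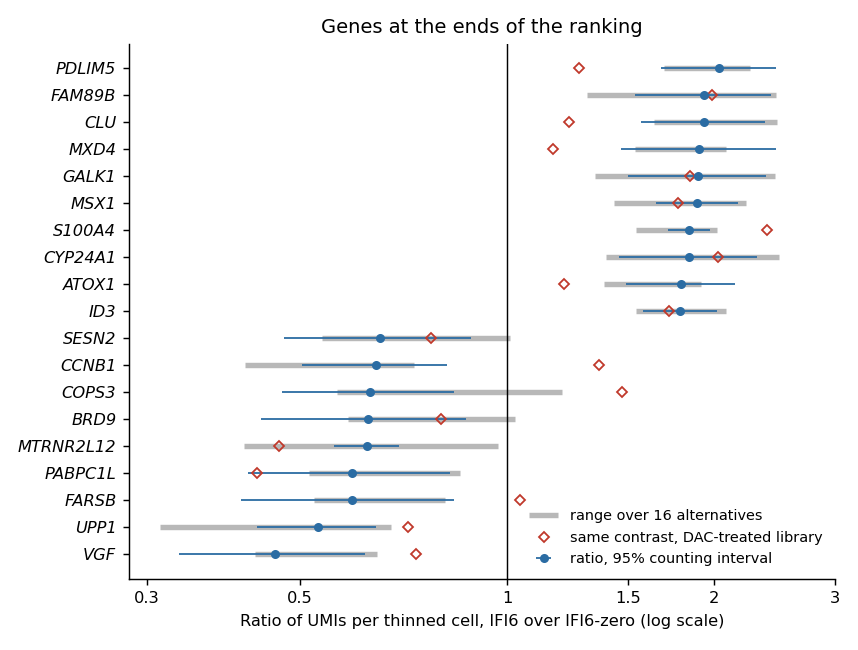
Blue points and lines give the ratio with its 95% counting interval for the 10 highest and the 9 reported lowest genes among those with 500 or more thinned UMIs in mock-treated cells, grey bars give the lowest and highest ratio over 16 alternative processings, and red diamonds give the same contrast in the DAC-treated library (log scale). Every grey bar of the 10 highest genes lies above 1, and those of *COPS3*, *BRD9* and *SESN2* reach past 1.

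Other pathways were examined by list, beside 6.98% of all genes higher and 3.84% lower. WNT target genes had 3 of 9 measured genes higher and 0 lower, with a median log2 ratio of 0.37, and their highest was *NOTUM*, a secreted WNT inhibitor that is induced by WNT signals (2.39, 1.39 to 4.01, on 23 UMIs), past the fold in each of the 16 alternatives. The other 2, *RNF43*, a ligase that removes WNT receptors, at 1.60 (1.26 to 2.03), and *DKK1*, a secreted WNT antagonist, at 1.56 (1.31 to 1.83), are named after their values were seen. Without the cells above 50% mitochondrial UMIs 2 of 9 were higher. The p53 targets had 4 of 24 higher and 1 lower, with a median of 0.28 that was 0.05 in cells of 20000 to 60000 UMIs, where 2 were lower, led by *TP53I3* at 2.25, which was 1.03 in the second draw, with *SESN2* lower. Their other higher members, also named after their values were seen, were *PLK2* at 1.91, *FUCA1* at 1.89 and *BTG2* at 1.86.

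The hypoxia and glycolysis list had 2 of 22 higher and 2 lower. It held the hexokinase gene *HK1* at 1.95 and the lowest ratio of any gene named here, that of *ADM*, encoding the vasoactive peptide adrenomedullin. *ADM* had 0.176 UMIs per cell in *IFI6* cells and 0.479 in *IFI6*-zero cells (0.37, 0.235 to 0.552) but was detected in 16.9% against 15.1% of cells. A single *IFI6*-zero cell held 211 of the 339 *ADM* UMIs of its group, and without that cell the ratio was 0.97.

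Most cell cycle genes lay within the fold. The S phase list had 2 of 41 genes higher and 5 lower and a median of 0.03, with *UNG* at 1.58, past the fold in 4 of the 16 alternatives, and *RAD51AP1* at 0.41, past it in 11. Without the cells above 50% mitochondrial UMIs 0 S phase genes were higher and 6 of 41 lower. The G2/M list had 0 of 55 higher and 6 lower and a median of -0.08, with cyclin A2 (*CCNA2*) lowest at 0.57. Without drawing, 0 S phase and 3 G2/M genes were lower, beside 0.468% of all genes. Of the G2/M genes, 8 of 55 were lower without the cells above 50% mitochondrial UMIs, beside 4.56% of all genes, and 10 of 53 in cells of 20000 to 60000 UMIs, beside 468 of all 7806 genes measured there. The amino acid response genes under ATF4 had a median of -0.19 and 7 of 22 ratios above 1, and a median of -0.31, 2 of 22 above 1 and 3 lower in cells of 20000 to 60000 UMIs, with *NUPR1* higher at 1.64, but 1.18 without its highest *IFI6* cell, and *SESN2* lower.

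The remaining lists are given beside 6.98% of all genes higher and 3.84% lower. Cholesterol synthesis genes under SREBP had 3 of 21 higher, led by *INSIG1* at 1.78 on 15 UMIs, which ranged from 1.15 to 2.46 over the 16 alternatives, and 1 lower, *HMGCS1* at 0.62 on 10 UMIs. Oxidative stress genes under NRF2 had 2 of 15 higher, led by *ABCC2* at 1.79, which was 1.00 with thinning to 5000 UMIs, metallothioneins 1 of 5, immediate early genes 1 of 18, and epithelial and colon differentiation genes 2 of 15, led by *S100A4*. The metallothionein was *MT1F* at 1.69 on 18 UMIs, with an interval that held 1 (0.933 to 2.94). The immediate early gene was the phosphatase gene *DUSP1* at 1.59, past the fold in 7 of the 16 alternatives. Heat shock genes (13 measured) and endoplasmic reticulum folding genes (17 measured) had 0 past the fold.

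Lists of abundant genes moved with the mitochondrial share of the *IFI6*-zero cells. Of 13 mitochondrially encoded genes 0 had a ratio above 1, with a median log2 ratio of -0.35 and 1 gene lower, *MT-ND6* at 0.66, whereas 41 of 41 cytosolic ribosomal protein genes had a ratio above 1, with a median of 0.13. Without the cells above 50% mitochondrial UMIs, 11 of the 13 mitochondrial genes and 9 of the 41 ribosomal protein genes had a ratio above 1, and the medians were 0.06 and -0.03. The interferon lists had a median of 0.30 there, with 10 of 52 genes past the fold, and of 0.18 without the cells above 20% mitochondrial UMIs, with 9 of 45, beside 5.23% of all genes.

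**Figure D5:**
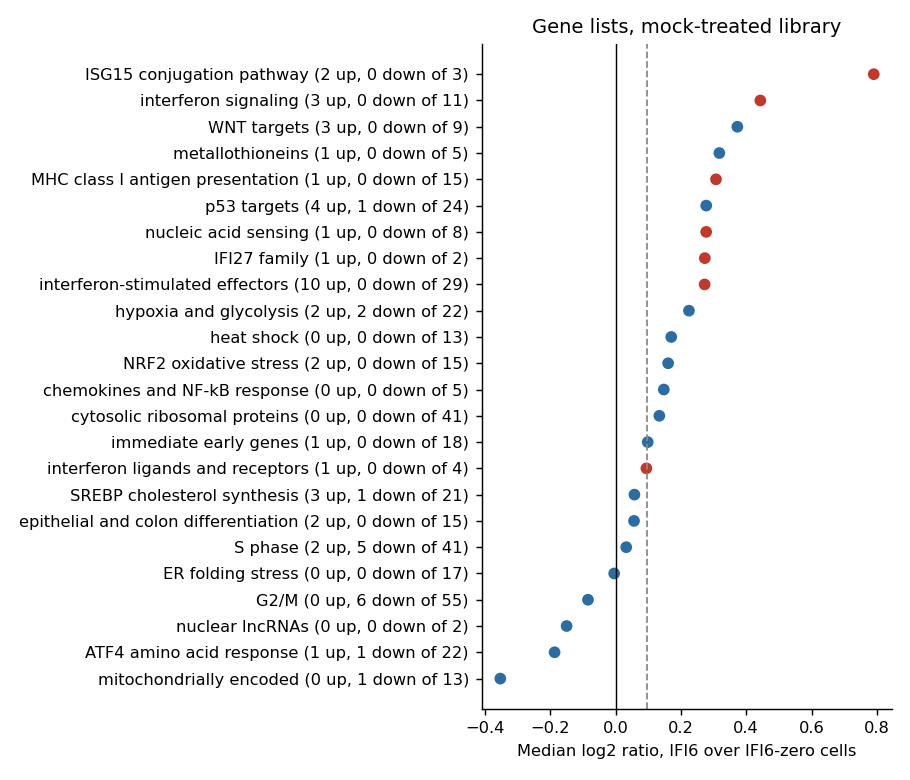
Points give the median log2 ratio, *IFI6* cells over *IFI6*-zero cells, of the measured genes of each list with at least 2 measured genes in the mock-treated library, with the numbers of genes higher (up) and lower (down) by a ratio of 1.5 beside each name. Red points are the interferon and MHC class I lists and blue points the others, the solid line marks 0 and the dashed line the median of all 8551 measured genes, 0.10. The ISG15 conjugation list lies highest, at 0.79, on 3 genes, and the mitochondrially encoded genes lie lowest.

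The same contrast could be drawn within the DAC-treated library, between 950 cells with 3 or more *IFI6* UMIs and 136 with none, both with 10000 or more UMIs. The gap in *IFI6* itself was wider with this cut than in the mock-treated library. The mean of the *IFI6* cells was 1.39 *IFI6* UMIs per thinned cell in the mock-treated and 6.29 in the DAC-treated library. There 1943 of 8850 measured genes (22.0%) were higher by 1.5 or more and 311 (3.51%) lower, the median log2 ratio was 0.28, 73.4% of the genes had a ratio above 1, and 51 of the 136 cells were above 50% mitochondrial UMIs, so the groups differed in more than *IFI6*. The interferon lists had 49 of 74 measured genes higher, with a median log2 ratio of 0.88. Of the 17 interferon genes past the fold in mock-treated cells, 16 were measured in DAC-treated cells, 16 had a ratio above 1 and 13 were past the fold, and their median log2 ratio was 1.08. The ratio was 3.57 for *ISG15* (3.28 to 3.89), 2.87 for *IFITM3* and 6.78 for *BST2*, whereas *IRF1* was at 1.29, within the fold. Whether the ratios of the 2 libraries differed was not tested.

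Of the 10 genes with the highest ratios in mock-treated cells, 10 had a ratio above 1 and 6 were past the fold in DAC-treated cells, beside the 73.4% above 1 and 22.0% past the fold over all genes, *S100A4* reaching 2.39, *MSX1* 1.77 and *ID3* 1.72. *PDLIM5*, *CLU*, *MXD4* and *ATOX1* were between 1.17 and 1.27 there. Of the 9 reported lowest genes, 6 had a ratio below 1 and 2 were past the fold. These were *PABPC1L* at 0.43 and *MTRNR2L12* at 0.47, while *VGF* was 0.74 and *UPP1* 0.72.

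The promoters of the interferon genes past the fold were compared for the ISRE core. Of these 17 genes 12 had a promoter in the RefSeq table, and 6 of the 12 held a match in the 250 bases before the start, beside 7 of 32 (21.9%) for the other measured genes of the interferon lists. The 6 were *ISG15*, *IFITM3*, *BST2*, *DDX60L*, *IFIT5* and *PARP14*, of which the last 3 were within the fold both without drawing and in the second draw. *SP110* and *IRF1*, with higher ratios than any of the 6, had no match to these letters in this window.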

How the data were processed

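Single-cell RNA sequencing was made by the authors with the 10x Genomics 3' v3 kit and processed with Cell Ranger on hg38, and the deposited values are raw UMI counts per gene and cell, not normalized. The annotation release, any cell filter and the doublet treatment were not given in the sources used here. Depth was 500 to 148446 UMIs per cell in the mock-treated library. Groups came from the labels, with 1 library per condition.

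Each cell of 10000 or more UMIs was thinned once to 10000. UMIs were summed over *IFI6* cells (3 or more UMIs, counted before thinning) and *IFI6*-zero cells, and the ratio of UMIs per cell was given with the exact conditional (Clopper-Pearson) 95% interval. A gene was measured with 100 or more thinned UMIs and counted as higher or lower past a ratio of 1.5. The code was tested on simulated data. Python 3.11.15, numpy 2.4.6, scipy 1.17.1, pandas 2.3.3 and matplotlib 3.10.9 were used.

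Named genes were *IFI6* and *ISG15*, the genes past the fold and the 3 with the most UMIs of each of 7 interferon and antigen presentation lists, the 10 highest and 10 lowest ratios among genes of 500 or more UMIs, the end genes of each other list where past the fold, and cell type markers. Some genes that fall under this rule are not reported here. The cells and lists were chosen with earlier results of these data known. *MB21D1* was matched as *CGAS*, *SOD2* was left out because 2 rows carry its symbol, and *MT1L* was not matched. Doublets were not called, and both libraries hold a single cell line. Droplets that add up the *IFI6* UMIs of 2 cells could be among the *IFI6* cells, and this was not tested. The 5% of cells with the most UMIs were left out as an alternative. Other alternatives changed the thinning, the *IFI6* threshold, the reference cells, depth, mitochondrial share, scaling, minimum and fold.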

Additional observations from a re-analysis of the deposited data

Results flagged for a closer look

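Among the named genes, 2 were past the fold in opposite directions in the 2 libraries. *RAD51AP1*, a recombination factor, had a ratio between *IFI6* cells and *IFI6*-zero cells of 0.41 (0.183 to 0.811) in mock-treated and of 2.56 (1.55 to 4.54) in DAC-treated cells. In mock-treated cells this rested on 9 UMIs in *IFI6* cells, and the ratio was 0.98 in the second draw and 0.90 without drawing. Cyclin A2 (*CCNA2*) had a ratio of 0.57 (0.346 to 0.901) in mock-treated and of 1.55 (1.18 to 2.06) in DAC-treated cells, and its mock ratio was 0.78 in the second draw and 0.86 without drawing. In the DAC-treated contrast 73.4% of all genes, 44 of 47 S phase and 53 of 56 G2/M genes had a ratio above 1. The difference between the libraries was not tested, since each condition had 1 library.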

How the results depend on the processing

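With 1 library per condition, no spread between replicates could be measured. No paired analysis was possible because each condition had 1 library. Ratios of single genes moved with the random draw. The alternatives without cells above 50% mitochondrial UMIs, without shared barcodes and without the single highest cell of a gene were chosen after seeing the data. The median of the interferon genes stayed above 0 in each alternative run (0.18 to 0.45 on the log2 scale), while that of all genes ran from 0.00 to 0.23. The cause of a change was not tested.

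The 597 higher genes became 988 with thinning to 5000 UMIs, 265 without drawing, 282 and 1195 with 2 or 5 *IFI6* UMIs as the threshold, 390 against cells with 0 to 2 *IFI6* UMIs, and 383 when divided by their median, where 475 were lower. They were 1021, 57 and 2884 with a minimum of 50 UMIs, of 500 and with none, and 1834 and 70 with the lower alternative fold and with a fold of 2. The 328 lower genes became 40 without drawing, 101 and 1068 with thresholds of 2 and 5, 851 with *IFI6* counted after thinning, 612, 13 and 1154 with a minimum of 50, of 500 and with none, and 967 and 63 with the lower alternative fold and a fold of 2. The 17 of 53 interferon genes (6.98% of all genes) became 11 of 62 with thinning to 20000 (5.09%), 10 of 53 against cells with 0 to 2 *IFI6* UMIs (4.56%), 9 of 45 and 10 of 52 without cells above 20% and 50% mitochondrial UMIs (5.23% and 4.98%), 11 of 53 when divided by the median (4.48%), 4 of 21 with a minimum of 500 UMIs (1.81%) and 35 of 84 with none (20.5%), the share of all genes in parentheses. The *ISG15* ratio moved to 2.34 with thinning to 5000, 1.99 in the second draw, 1.53 and 2.17 with thresholds of 2 and 5, and 1.53 without cells above 20% mitochondrial UMIs. The share of *IFI6* cells was 10.2% among cells of 10000 or more UMIs.

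Single genes changed direction. With thinning to 5000 *IFIT5* was 0.99, *CNP* 0.83, *COPS3* 1.20 and *RAD51AP1* 1.11. In the second draw *IFNAR2* was 0.88 and *BRD9* 1.03. *IFIT5* was 0.99 with the threshold of 2 and 0.78 with *IFI6* counted after thinning, where *UBE2L6* was 0.77. *SESN2* was 1.01 with the threshold of 5, *RAD51AP1* 1.01 with mitochondrially encoded genes left out, and *MT-ND6* 1.01 in cells of 20000 to 60000 UMIs and 1.02 without cells above 20% mitochondrial UMIs.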
